A study of Homo sapiens with 12 samples.

Results

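The comparison described here is that of the lentiviral vector shCREB2 with the Scrambled control vector in 4 leukemic cell lines. Its members were the arrays whose titles name shCREB2 or Scrambled, paired within each line, which gave 8 of the 12 arrays of the series, 4 with each vector. The 4 remaining arrays carry a further vector, shCREB3. Jurkat and Molt4 are lines of T cell acute lymphoblastic leukemia (T-ALL), and Nalm6 and RS4;11 are lines of B cell precursor acute lymphoblastic leukemia (BCP-ALL). All cells, controls included, carried a lentiviral pLKO1-mCherry vector, and RNA came from populations grown out of the stably transduced cells. A short hairpin RNA (shRNA) encoded by such a vector is processed into a small RNA that directs degradation of transcripts with a matching sequence. shCREB2 is the name of a vector against CREB and not the gene ATF4, which is also known as CREB2. There was 1 array for each vector in a line, so that the line is the replicate (n = 4 lines) and nothing describes the spread within a line. Where 4 values follow each other without the names of the lines, they stand for Jurkat, Molt4, Nalm6 and RS4;11 in this order. The number of arrays limits the precision.

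CREB, encoded by CREB1, is a transcription factor that binds the cAMP response element TGACGTCA and, when phosphorylated by kinases such as protein kinase A, recruits the coactivators CREBBP and EP300. It is known for driving immediate early genes, genes of metabolism and genes of cell survival, and it has been studied in leukemia as a factor that favours growth. The question behind the comparison is which transcripts differ after shRNA against CREB, and whether they differ alike in T-ALL and BCP-ALL cells.

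Levels are given on a log2 scale, converted from the natural log values that the authors deposited, and differences are shCREB2 minus Scrambled of the same line. Genes with a probe that was detected (p-value under 0.01) on 4 or more of the 12 arrays were kept, which left 13036 of 34694 genes. Genes detected on no array had a median log2 level of 6.85, kept genes a median of 7.84, and the highest level was 14.24, so a level close to 6.85 is close to background and a difference that reaches down to it is understated. Between 14320 and 15660 of 47323 probes were detected per array. The line labels were borne out by marker genes. Of 9 T cell markers, 9 were detected in Jurkat and in Molt4 with either vector, and of 9 B cell precursor markers 8 were detected in Nalm6 and 7 in RS4;11 with either vector. Some markers were also detected in lines of the other lineage. LCK was the 1 T cell marker detected in Nalm6, RS4;11 had 3 with Scrambled and 4 with shCREB2 (among them CD3D, CD2 and LCK), and 3 to 4 of the B cell precursor markers (among them CD79A, CD79B and IGLL1) were detected in the T-ALL lines, where the highest level was 8.82, that of VPREB1 in Molt4. The array labelled shCREB2 of Nalm6 stood apart from all others, since its highest correlation with any array was 0.971, against at least 0.987 for each of the 11 other arrays. Tests over the lines are therefore given with and without the Nalm6 pair, and values of single lines are given one by one.

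CREB1 mRNA was not lower on the arrays labelled shCREB2. With Scrambled its log2 level was 9.50, 9.77, 10.00 and 10.13. With shCREB2 the log2 level was 9.47, 10.14, 10.23 and 9.91. The level was thus higher in Molt4 and Nalm6, lower in RS4;11 and nearly the same in Jurkat, and the levels with the vectors overlapped. The mean difference was 0.09 (standard error 0.10 over 4 lines, adjusted p = 0.67 by limma) with a 95% confidence interval of −0.16 to 0.33, and it was 0.04 without the Nalm6 pair. Of 5 CREB1 probes, 2 were detected. The arrays measured mRNA only, so the level of CREB protein was not analysed here. By Western blot, the study reports less CREB protein in each line with the vector compared here than with the control, to varying degrees. The libraries are called by their labels throughout.

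The size of the difference between shCREB2 and Scrambled was far from equal in the 4 lines. The standard deviation of the differences over all 13036 genes was 0.208, 0.235, 0.364 and 0.121. In Nalm6, 120 genes were at least 2-fold higher (0.921% of the genes tested) and 179 at least 2-fold lower (1.37%). Molt4 had 15 such genes higher (0.115%) and 59 lower (0.453%), Jurkat 3 higher (0.023%) and 42 lower (0.322%), and RS4;11 had 0 in either direction. The largest differences were 1.31 and −2.23 in Jurkat, 1.57 and −2.31 in Molt4, 3.05 and −2.85 in Nalm6, and 0.85 and −0.80 in RS4;11. With shCREB3 the standard deviations were 0.173, 0.202, 0.241 and 0.105, also largest in Nalm6. Both vectors were compared with the same Scrambled arrays. In RNA from whole cultures, fewer cells of a kind and less RNA per cell cannot be told apart.

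**Figure D1:**
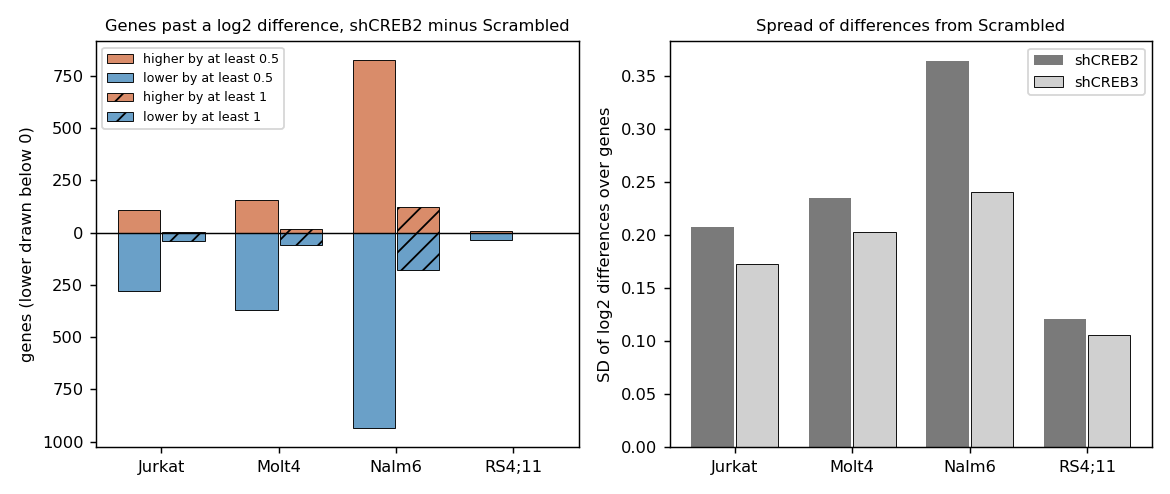
Left, number of genes higher (above 0) or lower (below 0) with shCREB2 than with Scrambled by at least 0.5 (plain bars) or 1 (hatched bars) on the log2 scale, by cell line. Right, standard deviation (SD) over genes of the log2 differences from Scrambled for shCREB2 (dark) and shCREB3 (light). For shCREB2 the spread was largest in Nalm6 (standard deviation 0.364) and smallest in RS4;11 (0.121), with Jurkat (0.208) and Molt4 (0.235) between them.

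Across genes, the differences of any pair of lines correlated positively, with Pearson's r from 0.39 to 0.68 (Jurkat with Molt4). With Nalm6 r was 0.43 for Jurkat, 0.51 for Molt4 and 0.42 for RS4;11. These values describe 13036 genes that are not independent, and each line has Scrambled and shCREB2 arrays of its own. The sign of the difference was the same in 4 of 4 lines for 4166 genes (32% of the genes tested), with 2289 higher (17.6%) and 1877 lower (14.4%). Large shared differences were lower more often than higher, by a margin that depended on the processing. In 4 of 4 lines, 18 genes were lower by at least 0.5 (0.138%) and 1 gene was higher by at least 0.5 (0.00767%). At a limit of 0.3 these counts were 91 lower (0.698%) and 27 higher (0.207%).

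Over the 4 lines, 0 of 13036 genes (0%) passed an adjusted p under 0.05 by limma with lines paired, with a lowest adjusted p of 0.0901. At an unadjusted p under 0.05 there were 1419 genes higher (10.9%) and 1333 lower (10.2%). Without the Nalm6 pair, 265 genes (2.03%) passed the test, 90 of them higher (0.69%) and 175 lower (1.34%), with adjusted p from 0.0430 to 0.0496. Without the RS4;11 pair 74 genes passed, and without the Jurkat or the Molt4 pair 0 genes passed. With all 12 arrays in 1 fit, where the shCREB3 arrays add to the estimate of the spread, 928 genes (7.12%) passed, 3.39% of the genes tested higher and 3.73% lower. With a weight for each array 588 (4.51%) passed, 1.82% higher and 2.69% lower. The weight given to the Nalm6 pair was 0.366, against 1.21 to 1.72 for the other pairs. In what follows, a gene is said to have risen or fallen only where it passed the test without the Nalm6 pair, and the 4 differences are given beside it.

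The differences in Nalm6 did not enter the test that gave these 265 genes, although the Nalm6 arrays counted in the detection filter and in the normalization between arrays. In Nalm6, 86 of the 90 genes that rose in the 3 other lines were also higher, and 163 of the 175 that fell were also lower. Of all 3114 genes higher in the 3 other lines (23.9% of the genes tested), 2289 were also higher in Nalm6, and of 2543 genes lower in the 3 other lines (19.5%), 1877 were also lower. The median difference of the genes that rose was 0.42 over the 3 lines and 0.65 in Nalm6, and that of the genes that fell was −0.51 and −0.82. By at least 0.5, 58 of the 90 and 124 of the 175 differed in the same direction in Nalm6, where 6.34% of all genes tested were higher and 7.19% lower by that much.

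The 10 genes lower in all lines with the largest shared difference were PRDX3, PSAT1, HDHD1A, FAM64A, PPPDE2, SNX27, ZW10, EIF2S1, ATP6V1A and ATP6V1B2. PRDX3, the peroxiredoxin of the mitochondrial matrix that reduces hydrogen peroxide, had the lowest mean difference of the 20 genes described in this and the next paragraphs. Its log2 level with Scrambled was 11.10, 11.24, 11.38 and 11.34, and with shCREB2 it was 9.11, 8.93, 8.53 and 10.67. All 4 arrays labelled shCREB2 lay below all Scrambled arrays, and RS4;11 was lowered least. The mean difference was −1.96 (standard error 0.33, n = 4 lines), a 3.88-fold lower level, and −1.66 without Nalm6 (adjusted p = 0.0446 by limma, n = 3 lines). PSAT1, the aminotransferase of the serine synthesis pathway, had a log2 level with Scrambled of 10.79, 9.73, 10.36 and 9.17. With shCREB2 the PSAT1 level was 8.57, 7.59, 8.39 and 8.62, and here too the groups did not overlap. The PSAT1 differences were −2.23, −2.13, −1.97 and −0.55, with a mean of −1.72 (standard error 0.28, adjusted p = 0.0495 by limma without Nalm6). HDHD1A (now PUDP), a phosphatase of pseudouridine monophosphate, was at 9.34, 9.16, 8.34 and 9.03 with Scrambled and at 7.63, 7.19, 7.11 and 8.23 with shCREB2. Its smallest difference, −0.80 in RS4;11, was the lowest value of any gene in that line, and the mean was −1.43 (standard error 0.19, adjusted p = 0.0430 by limma without Nalm6).

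**Figure D2:**
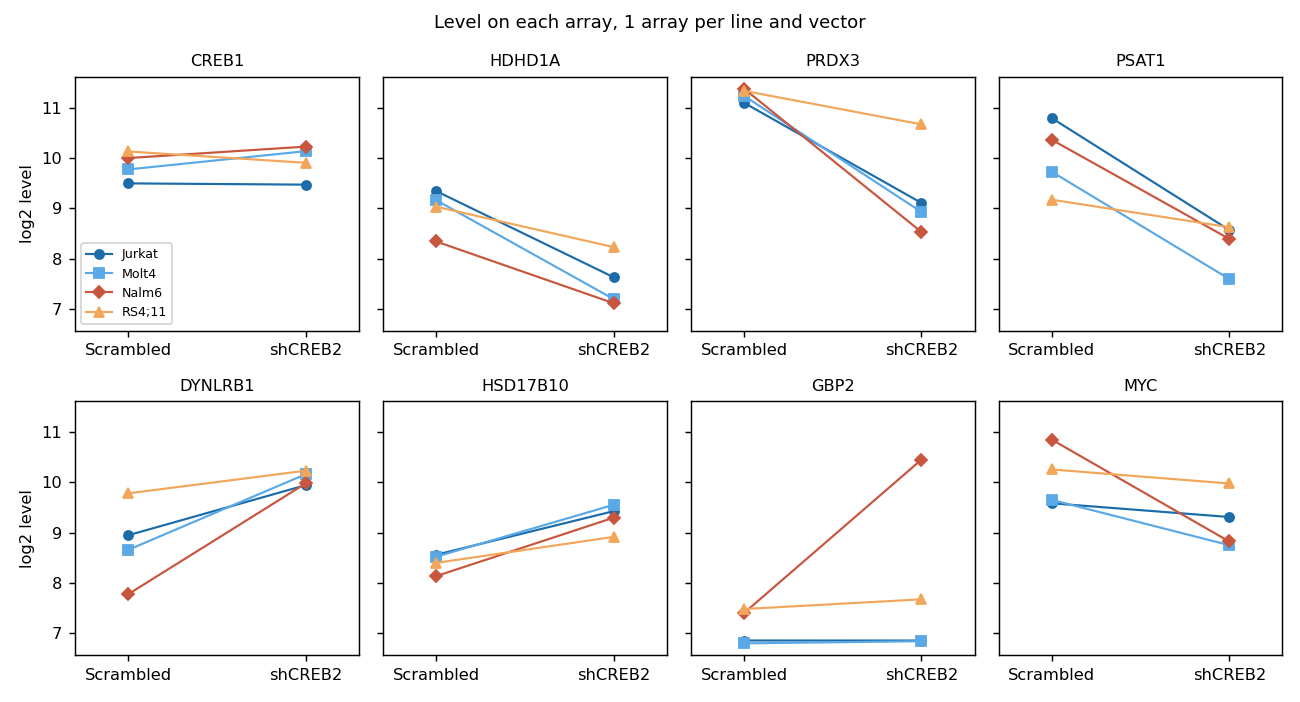
Log2 level of 8 genes on each Scrambled and shCREB2 array, with a line joining the arrays of 1 cell line. CREB1 levels overlapped, PRDX3, PSAT1 and HDHD1A were lower and DYNLRB1 and HSD17B10 higher in all 4 lines, and GBP2 and MYC differed most in Nalm6.

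FAM64A (now PIMREG), a protein of mitotic cells, had differences of −1.14, −1.39, −1.95 and −0.63, with a mean of −1.28 (standard error 0.20). SNX27, a sorting nexin that returns membrane proteins from endosomes to the cell surface, was at 9.92, 9.55, 9.67 and 9.44 with Scrambled and at 8.46, 8.35, 8.13 and 8.82 with shCREB2. These SNX27 levels did not overlap between the vectors, and the mean difference was −1.20 (standard error 0.15). The mean difference of PPPDE2 (now DESI1), a deSUMOylating isopeptidase that was not detected in Molt4 with shCREB2, was −1.27, and that of ZW10, a kinetochore protein that also acts in vesicle traffic, was −1.10. EIF2S1, the alpha subunit of the translation initiation factor eIF2, had differences of −1.02, −0.93, −1.68 and −0.54, with a mean of −1.04. Among the 10 were also the A subunit of the V-type proton pump of endosomes and lysosomes and a B subunit of it. ATP6V1A had a mean difference of −1.02 (standard error 0.15) and ATP6V1B2 one of −0.90 (standard error 0.10). All 10 genes fell without the Nalm6 pair, by 0.80 to 1.66 with adjusted p from 0.0430 to 0.0495 by limma. They were chosen for large shared differences in these same lines, so this result is not independent of the choice. Over 4 lines their adjusted p was 0.0901 to 0.0902.

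The 10 genes with the largest shared differences upward differed by less than the 10 lower genes, with means of 0.57 to 1.29 against −1.96 to −0.90. DYNLRB1, a roadblock-type light chain of dynein, had a log2 level with Scrambled of 8.95, 8.66, 7.78 and 9.78. With shCREB2 its level was 9.95, 10.16, 9.98 and 10.23, which lay above all 4 Scrambled levels, and the lines were closer to each other than with Scrambled. The mean difference was 1.29 (standard error 0.26), a 2.44-fold higher level, and 0.98 without Nalm6 (adjusted p = 0.0460 by limma). HSD17B10, a mitochondrial dehydrogenase that is also a subunit of mitochondrial RNase P, was at 8.56, 8.52, 8.13 and 8.40 with Scrambled and at 9.43, 9.55, 9.30 and 8.92 with shCREB2, without overlap. It was the 1 gene higher by at least 0.5 in 4 of 4 lines, with a mean difference of 0.90 (standard error 0.11) and 0.81 without Nalm6 (adjusted p = 0.0430 by limma). HADH2, an older symbol of the same gene listed with a probe of its own, had a mean difference of 0.77, so both entries count 1 gene. VPS37C, a subunit of the endosomal sorting complex ESCRT-I, had differences of 0.76, 0.72, 1.62 and 0.45. LOC400027 (now LINC00938), a long noncoding RNA, had 0.54, 0.71, 1.84 and 0.41.

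RNU1-5 (now RNVU1-18), a variant copy of the U1 small nuclear RNA of the spliceosome, had a mean difference of 0.84, and its probe may also bind near-identical U1 copies. LOC440957 (now UQCC5), an assembly factor of respiratory complex III, had a mean difference of 0.73 with a narrow spread (0.78, 0.72, 0.97 and 0.45, standard error 0.09). CBX6, a chromobox subunit of Polycomb repressive complex 1, had a mean of 0.65, NICN1 a mean of 0.61 and LOC729580 a mean of 0.57. All 10 genes rose without the Nalm6 pair, by 0.48 to 0.98 with adjusted p from 0.0430 to 0.0460 by limma, which again is not independent of how they were chosen. Over 4 lines their adjusted p was 0.0901 to 0.124. For these 20 genes, chosen by their smallest difference, RS4;11 had the smallest difference in 18 and Nalm6 the largest in 16. Relative to Jurkat, the median size of the difference was 0.56 in RS4;11, 1.15 in Molt4 and 1.61 in Nalm6.

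**Figure D3:**
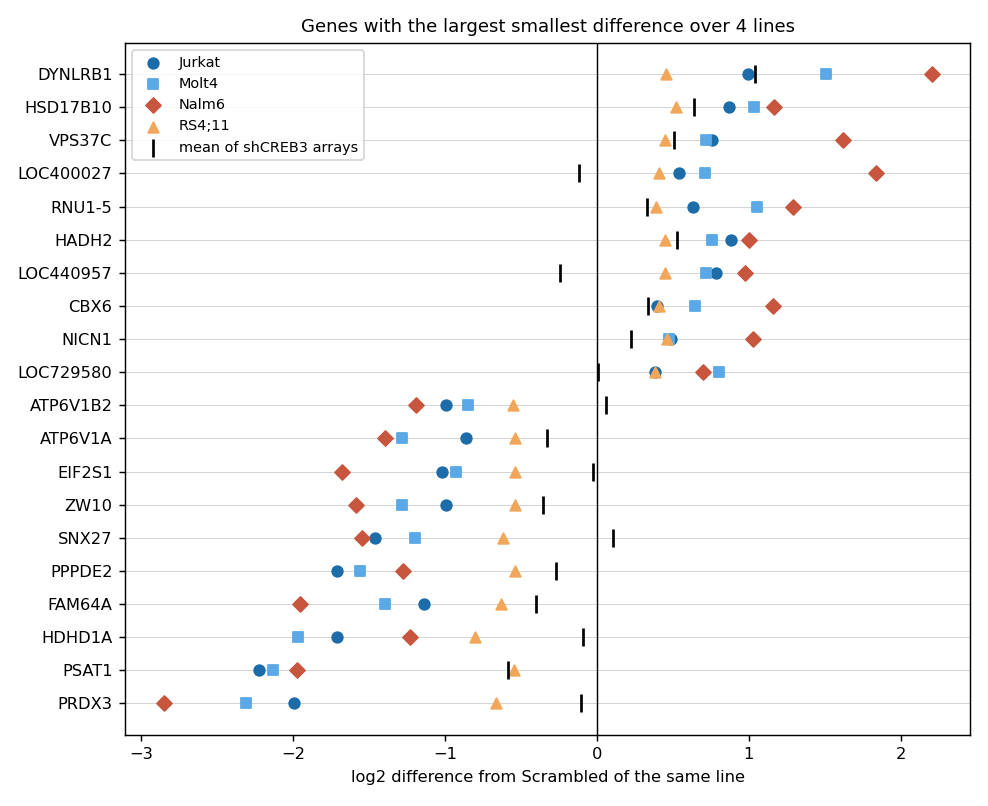
Log2 differences (shCREB2 minus Scrambled) of the 10 higher and 10 lower genes with the largest shared difference, 1 point per cell line, with the mean difference of the 4 shCREB3 arrays as a vertical bar. In most of the genes RS4;11 lies nearest to 0 and Nalm6 farthest from it.

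Other genes were shared at 2-fold by the lines other than RS4;11. Of the 42 genes at least 2-fold lower in Jurkat, 33 were at least 2-fold lower in Molt4 (59 genes, 0.453% of those tested), 26 in Nalm6 and 0 in RS4;11, and 36 were lower in all 3 other lines. DCTPP1, which hydrolyses dCTP and modified cytidine triphosphates, had differences of −1.33, −1.56, −2.60 and −0.50. LYAR, a nucleolar zinc finger protein, had −1.03, −1.33, −2.35 and −0.48, and TXNDC12, a thioredoxin-like protein of the endoplasmic reticulum, −1.06, −1.25, −2.62 and −0.50. PIP4K2A, a phosphoinositide kinase, had −1.73, −1.78, −1.58 and −0.51. Of the 15 genes at least 2-fold higher in Molt4, 10 were also at least 2-fold higher in Nalm6, and these 10 were among 120 such genes of Nalm6.

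Some of the genes at least 2-fold higher or lower in Nalm6 were close to no difference in the other lines. Of the 120 higher genes, 75 were higher in all 3 other lines, but 35 lay within 0.25 of no difference in each of them. Of the 179 lower genes, 153 were lower in all 3 other lines, and 26 lay within 0.25 in each. Of all genes tested, 23.9% were higher and 19.5% lower in the 3 lines other than Nalm6. The share of all genes within 0.25 in each of these lines was not counted, so 35 and 26 cannot be called unusual. GBP2, an interferon-inducible GTPase, had the largest difference of any gene in Nalm6, from a log2 level of 7.40 with Scrambled to 10.45 with shCREB2. In RS4;11 GBP2 went from 7.48 to 7.67, and in Jurkat and Molt4 it was not detected with either vector, at levels of 6.80 to 6.85. RGS2, an inhibitor of G protein signalling that is a known CREB target, had a difference of 2.15 in Nalm6 (from 7.81 to 9.96) against −0.04 to 0.09 in the other lines. KLF2, a transcription factor of lymphocyte quiescence and migration, went from 9.96 to 12.05 in Nalm6 and had differences of −0.42 to −0.04 in the other lines. STAP1, an adaptor of B cell receptor signalling, had 1.80 in Nalm6 and 0.00 to 0.07 elsewhere. It was not detected in Jurkat or Molt4 with either vector, nor in RS4;11 with Scrambled. For GBP2 and STAP1, a difference near 0 in such lines is thus one of levels close to background. LY96, a coreceptor of Toll-like receptor 4, had 1.86 in Nalm6 and −0.55 in Jurkat.

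MYC, the transcription factor that drives growth and ribosome production, was at 9.58, 9.65, 10.85 and 10.26 with Scrambled. With shCREB2 it was at 9.31, 8.75, 8.82 and 9.98, and the MYC differences of −0.27, −0.90, −2.03 and −0.28 were largest in Nalm6. RAG1, a recombinase of antigen receptor genes, had −1.37 in Nalm6 and −0.22 to 0.10 in the other lines, and it was not detected in Jurkat with either vector. HBA2, an alpha globin gene, had −1.61 in Nalm6, where it was not detected with shCREB2, and the same −1.61 with shCREB3. The mean log2 level of 5 erythroid markers was 7.30 with Scrambled and 6.88 with shCREB2 in Nalm6, and the T cell markers there had a mean of 6.92 and 6.91. Of the erythroid markers, only HBB and HBA2 were detected in Nalm6 with Scrambled, and 0 were with shCREB2. HBA2 went from 8.55 to 6.94, and the erythroid mean includes the undetected markers. The part of the erythroid markers in these differences was not tested. With 1 array per vector in a line, none of the Nalm6 values can be tested on its own. On the shCREB3 array of Nalm6, compared with the same Scrambled array, the differences of GBP2, RGS2, KLF2 and MYC were −0.24, −0.53, −0.65 and 0.01.

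**Figure D4:**
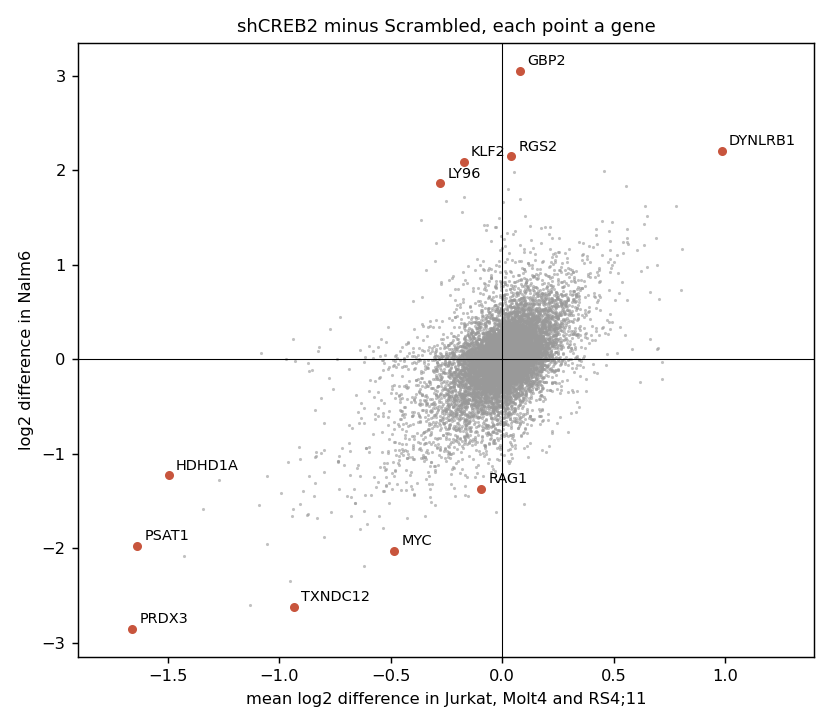
Log2 difference (shCREB2 minus Scrambled) of each gene in Nalm6 against its mean difference in Jurkat, Molt4 and RS4;11, 1 point per gene and the named genes in red. Genes such as PRDX3 and DYNLRB1 lie far from 0 on both axes, while GBP2 (3.05 in Nalm6) and KLF2 (2.09 in Nalm6) lie far from 0 on the Nalm6 axis.

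Genes of the cell cycle were lower as a group in Nalm6. Of 46 measured genes of DNA replication and the G1/S transition, 45 were lower in Nalm6, 32 of them by at least 0.5, and of 42 genes of G2/M and mitosis 42 were lower and 38 by at least 0.5. In all genes tested, 7.19% were lower by at least 0.5 in that line. The median difference of the replication genes was 0.01, −0.13, −0.70 and −0.02, and that of the mitosis genes −0.04, −0.14, −0.80 and −0.04. The medians of all genes lay between 0.00 and 0.01. In the shCREB3 array of Nalm6 the medians of these lists were −0.20 for replication and 0.01 for mitosis. Without Nalm6, 3 genes of each list passed the test, and all 6 fell, where 1.34% of all genes tested fell. They were POLA1 (−0.77), the catalytic subunit of DNA polymerase alpha, MCM10 (−0.62), a factor of replication initiation, RFC3 (−0.56), a subunit of the clamp loader, FAM64A (−1.06), AURKA (−0.64), a mitotic kinase, and CKAP2 (−0.52), a spindle protein. POLA1 had differences of −0.95, −0.99, −1.61 and −0.37, and AURKA −0.64, −0.97, −1.80 and −0.30.

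**Figure D5:**
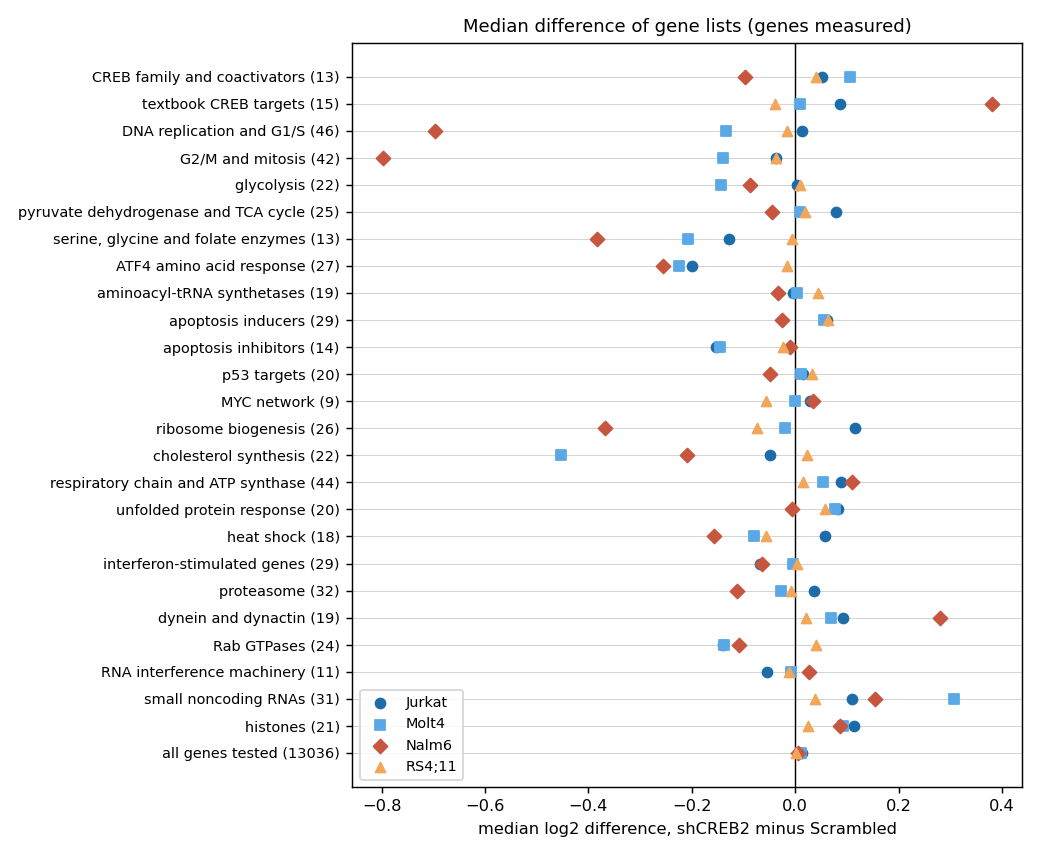
Median log2 difference (shCREB2 minus Scrambled) of the measured genes of each list, 1 point per cell line, with the number of measured genes in brackets. The median of the mitosis list was −0.80 in Nalm6 and −0.14 to −0.04 in the other lines.

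For the lists described from here on, counts in 4 of 4 lines stand against 17.6% of all genes higher and 14.4% lower. Genes that passed the test without Nalm6 stand against 0.69% of all genes that rose and 1.34% that fell. Of 13 measured enzymes of serine, glycine and folate metabolism, 6 were lower and 1 was higher in 4 of 4 lines, and PSAT1 alone fell without the Nalm6 pair. PHGDH, the first enzyme of serine synthesis, was at 13.40, 13.16, 12.82 and 12.45 with Scrambled and at 12.84, 12.65, 11.78 and 12.43 with shCREB2. Its mean difference was −0.53 (standard error 0.15, adjusted p = 0.14 by limma), with almost none in RS4;11 (−0.02). Of 27 measured genes of the amino acid response driven by ATF4, 9 were lower and 1 was higher in 4 of 4 lines, with list medians of −0.20, −0.22, −0.26 and −0.02. The 1 gene that was higher, DDIT3, encodes the stress factor CHOP and rose without Nalm6, with differences of 0.47, 0.68, 0.32 and 0.31. In the unfolded protein response, 6 of 20 measured genes were higher and 0 lower in 4 of 4 lines, and DDIT3 and ERN1 (0.41, 0.61, 0.62 and 0.27), a sensor of the endoplasmic reticulum, rose.

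In glycolysis and the TCA cycle, 0 and 1 genes passed without Nalm6, where 2.03% of all genes did. Of 22 measured glycolysis genes, 4 were higher and 7 lower in 4 of 4 lines, and 0 rose or fell without Nalm6 by limma. Over 4 lines at an unadjusted p under 0.05 by limma, 2 of them were higher and 6 lower, against 10.9% and 10.2% of all genes. Of 25 genes of pyruvate dehydrogenase and the TCA cycle, 7 were higher and 5 lower in 4 of 4 lines. DLAT, the acetyltransferase subunit of pyruvate dehydrogenase, fell, with differences of −0.60, −0.86, −1.44 and −0.38. Of 44 subunits of the respiratory chain and ATP synthase, 12 were higher and 1 lower in 4 of 4 lines, where 17.6% and 14.4% of all genes were, with list medians of 0.02 to 0.11 in the 4 lines. In cholesterol synthesis the list medians were −0.05, −0.45, −0.21 and 0.02, lowest in Molt4. HMGCS1, a synthase early in that pathway, had −0.54, −1.39, −1.45 and −0.15 without passing the test.

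In transport inside the cell, of 19 dynein and dynactin subunits and partners, 8 were higher and 2 lower in 4 of 4 lines, and DYNLRB1 and the dynactin subunit ACTR1A (0.45, 0.32, 0.54 and 0.27) rose. Of 24 Rab GTPases, the switches of vesicle traffic, 4 were higher and 8 lower in 4 of 4 lines. RAB8B (−1.46, −1.31, −1.23 and −0.39) and RAB22A (−1.18, −1.17, −1.66 and −0.48) fell. Of 31 small noncoding RNAs, 13 were higher and 1 lower in 4 of 4 lines, and RNU1-5 rose. Several of these entries are copies of U1 or of other small RNAs that share sequence, so they are not separate measurements.

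Among CREB family members and coactivators, 5 of 13 were higher and 2 lower in 4 of 4 lines, and CREB3L2, a membrane-bound relative of CREB, rose (0.38, 0.65, 0.52 and 0.29). Of 15 measured textbook targets of CREB, 1 was higher and 2 were lower in 4 of 4 lines. The higher gene was JUND, a subunit of AP-1, which rose, with 0.35, 0.42, 1.23 and 0.32, and the anti-apoptotic gene BCL2 was lower by 0.19, 0.20, 0.38 and 0.36. The list median was 0.38 in Nalm6 and −0.04 to 0.09 in the other lines. Of 29 inducers of apoptosis, 7 were higher and 3 lower in 4 of 4 lines, of 14 inhibitors 0 were higher and 3 lower, and none of either list passed the test without Nalm6 by limma. At an unadjusted p under 0.05 over 4 lines, 5 inducers were higher and 2 lower, and 3 inhibitors were lower. Over all genes these shares were 17.6% higher and 14.4% lower in 4 of 4 lines and 10.9% higher and 10.2% lower at an unadjusted p under 0.05, so the counts of inducers lay near those of all genes.

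In the remaining lists 1 gene or none passed the test without the Nalm6 pair. WDR75, a factor of ribosome production, fell (−0.62, −0.35, −0.96 and −0.33), as the 1 of 26 measured genes of ribosome biogenesis, whose median was −0.37 in Nalm6 and −0.08 to 0.12 in the other lines. XPO5, the nuclear export receptor of microRNA precursors and short hairpin RNAs, fell (−0.48, −0.64, −1.12 and −0.27), as the 1 of 11 measured genes of RNA interference. OAS2, an interferon-induced sensor of double-stranded RNA, fell (−0.53, −0.43, −1.37 and −0.26), as the 1 of 29 interferon-stimulated genes, of which 5 were higher and 7 lower in 4 of 4 lines. The chaperone cofactor DNAJB1 rose (0.31, 0.44, 0.88 and 0.41), as the 1 of 18 heat shock genes, and so did H2AFX (0.52, 0.48, 0.25 and 0.30), the histone variant phosphorylated at DNA breaks, as the 1 of 21 histones. Of 20 p53 targets, 32 proteasome subunits, 19 aminoacyl-tRNA synthetases and 9 genes of the MYC network none passed. Over 4 lines at an unadjusted p under 0.05 these lists had 0, 2, 1 and 0 genes higher and 0, 5, 1 and 1 lower in this order by limma. Of all genes tested, 10.9% were higher and 10.2% lower at that threshold.

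The study named 20 genes beside CREB1 in 3 functions, and it chose them on these samples, so their direction is not independent evidence. All 9 genes of proliferation and all 8 of glucose metabolism were lower, and all 3 of apoptosis were higher, in 4 of 4 lines. Of the 20 genes, MCM10, DLAT and PSAT1 fell without the Nalm6 pair by limma, and 0 passed over 4 lines. At an unadjusted p under 0.05 over 4 lines, 7 of the proliferation genes and 8 of the glucose metabolism genes were lower and 3 of the apoptosis genes were higher. Of all genes tested, 10.2% were lower and 10.9% higher at that threshold. The mean differences among the proliferation genes ran from −0.87 (MCM10) to −0.06 (CSNK1A1). ALDOC, an aldolase of glycolysis, had differences of −1.04, −1.25, −0.41 and −0.14, and its T-ALL minus BCP-ALL value did not pass the test (adjusted p = 0.90 by limma). The apoptosis genes BAD, BNIP2 and DEDD2 had mean differences of 0.16, 0.27 and 0.27, with the widest span in BNIP2 (0.09 to 0.58).

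Promoters were read for the cAMP response element, since it is the site that CREB binds. RefSeq promoters (GRCh38.p14, 250 bases before to 50 after the start) were searched for TGACGTCA, a palindrome that reads the same on both strands. It was present in 1.98% of 27305 promoters and in 289 of 8016 genes tested here that matched by symbol (3.61%). The median difference of the 289 genes was 0.01, −0.01, −0.04 and −0.01, against 0.00 to 0.01 for the 7727 genes without it. Of the genes with the element 18.3% were lower in 4 of 4 lines and 17.3% higher, and of those without it 16.3% and 18.2%. Among the 20 genes with the largest shared differences, which are 19 genes once the older symbol is joined, 12 matched and 0 held TGACGTCA. Its shorter core, TGACG on either strand, which includes every TGACGTCA, was in 25% of all promoters, in 36.2% of the genes tested here that matched and in 4 of these 12 genes. Among the 21 genes named by the study, 19 matched, 10 held the core and 2 held the whole element, MCM10 and PAFAH1B1, a regulator of dynein whose differences were −0.53, −0.80, −1.01 and −0.10. KIAA0494 (now EFCAB14), which had −1.19, −1.16, −1.09 and −0.54 and belongs to the 18 genes lower by at least 0.5 in 4 of 4 lines, also held it. KIAA0494 was named after its values were seen, and how many of these 18 genes held the element was not counted. With shCREB3, against the same Scrambled arrays, KIAA0494 was higher in 4 of 4 lines, with a mean difference of 0.38 (adjusted p = 0.038 by limma). The last 100 bases before the start of these 3 genes are shown 5′ to 3′ on the strand of the gene, with the element in capitals, because they carry the site that the targeted factor recognises. A match describes letters in the sequence and not binding. The regions are chr1:46719115-46719214 on the minus strand for KIAA0494, chr10:13161458-13161557 on the plus strand for MCM10 and chr17:2593554-2593653 on the plus strand for PAFAH1B1.
KIAA0494: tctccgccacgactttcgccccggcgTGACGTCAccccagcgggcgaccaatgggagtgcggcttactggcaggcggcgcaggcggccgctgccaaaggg
MCM10: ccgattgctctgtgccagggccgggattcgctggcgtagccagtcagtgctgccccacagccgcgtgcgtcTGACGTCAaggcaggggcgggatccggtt
PAFAH1B1: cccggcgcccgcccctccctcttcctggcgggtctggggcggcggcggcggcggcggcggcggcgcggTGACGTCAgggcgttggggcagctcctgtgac

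The element began 74 bases before the start in KIAA0494, 29 in MCM10 and 32 in PAFAH1B1. MCM10 was at 8.90, 8.87, 9.10 and 8.97 with Scrambled and at 8.20, 8.04, 7.50 and 8.64 with shCREB2, without overlap between the vectors. PAFAH1B1 was at 9.87, 9.71, 9.65 and 9.97 with Scrambled and at 9.33, 8.91, 8.64 and 9.87 with shCREB2, where the RS4;11 array overlapped the Scrambled levels.

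The effect of shCREB2 was compared between T-ALL and BCP-ALL lines with 2 lines on each side. By limma 0 of 13036 genes (0%) passed, with a lowest adjusted p of 0.63, and at an unadjusted p under 0.05 there were 257 genes with a higher difference in T-ALL (1.97%) and 374 with a lower one (2.87%). DTX1, a regulator of Notch signalling, had 0.93 in Jurkat and 1.01 in Molt4 against −0.24 and −0.08 in the BCP-ALL lines, a T-ALL minus BCP-ALL value of 1.13 (standard error 0.11, adjusted p = 0.63 by limma). It was not detected in RS4;11. Without the Nalm6 pair the T-ALL minus BCP-ALL value of DTX1 was 1.05. RS4;11 is then the only BCP-ALL line, so this value cannot show a difference in response between lineages. Without a BCP-ALL line the spread comes from the T-ALL lines alone, and the single BCP-ALL line is assumed to vary as they do. HPGD, which inactivates prostaglandins, had −1.34 and −1.28 in the T-ALL lines, and KRT1, a keratin, −1.20 and −1.15, but neither was detected in the BCP-ALL lines, where a decrease could not be seen. ALDH1A2, an enzyme of retinoic acid synthesis, had −1.48, −1.46, 0.06 and −0.31 and was not detected in Nalm6. ALOX5AP, the activator of 5-lipoxygenase in leukotriene synthesis, had the highest difference of RS4;11 (0.85, from 8.29 to 9.14), 0.09 in Nalm6, and −0.95 and −1.27 in Jurkat and Molt4. TNFRSF4, a costimulatory receptor of T cells, had the highest difference of Jurkat (1.31), and RN7SK, a small nuclear RNA that restrains transcription elongation, that of Molt4 (1.57).

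Against shCREB3, the other vector against CREB, the arrays labelled shCREB2 can be compared directly within lines, without the Scrambled arrays. By limma 0 genes (0%) passed the test of shCREB2 minus shCREB3, with a lowest adjusted p of 0.0540, while 1773 genes had an unadjusted p under 0.05 with higher levels with shCREB2 (13.6%) and 1482 with lower ones (11.4%). PRDX3, HDHD1A and USP14, a deubiquitinase of the proteasome, had mean differences from Scrambled of −1.96, −1.43 and −0.74 with shCREB2 and of −0.11, −0.09 and 0.00 with shCREB3. DYNLRB1 had 1.29 and 1.04, with 1.08, 1.25, 1.55 and 0.29 for shCREB3. PHGDH lay the other way, with −0.53 and −1.96, and was higher by 1.43 with shCREB2 than with shCREB3 (standard error 0.21, unadjusted p = 0.000521 and adjusted p = 0.054 by limma). CTXN1, which encodes cortexin, had the smallest unadjusted p of this test (2.54e-05) and was higher by 0.87 with shCREB2. Its 4 differences from Scrambled with shCREB2 were 0.79, 0.78, 0.11 and 0.51. For the 10 lower genes of the largest shared differences the adjusted p of shCREB2 minus shCREB3 was 0.054 to 0.062, and for the 10 higher genes it was 0.054 to 0.249. The same paired test gave 379 genes (2.91%) for shCREB3 against Scrambled, 147 higher (1.13%) and 232 lower (1.78%), and shares its controls with the shCREB2 test.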

How the data were processed

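RNA of transduced cells was measured on 12 Illumina Human BeadChips. The authors deposited 2 tables. The first holds natural log values of 34694 genes, which the authors quantile-normalized between arrays and averaged over the probes of a gene, and the second holds probe signals that the authors exported without normalization, each with a detection p-value. The decimal mark was missing from 98.1% of the signals as deposited and was restored from the first table. For a gene with a single probe the nearest possible value was taken. Where a gene had several probes, their mean had to match within 0.02 on the natural log scale. The deposited natural log values were converted to log2. The 8 arrays were fitted with limma 3.58.1 (lmFit, eBayes; R 4.3.3) with the cell line as a block, because the arrays of a line come from the same cells, and the Benjamini-Hochberg adjustment ran over 13036 genes. No source says whether the arrays of a line came from separately repeated cultures, so p-values measure the spread between the 4 lines, or between 3 without Nalm6. Python 3.11.15, numpy 2.4.6, pandas 2.3.3, scipy 1.17.1 and matplotlib 3.10.9 were used for the rest. The fit was also tested on simulated data, in which a gene had the same spread and effect in every line, unlike the lines here.

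The comparison, the gene lists and the tests were chosen with earlier results of these data known. Genes were named by rule: those the study names, the 10 higher and 10 lower with the largest smallest difference over 4 lines, the 4 highest and 4 lowest of each line, 6 in each direction whose Nalm6 value lay farthest from the other lines, up to 2 per list and direction with the same sign in 4 lines, and 3 per direction for the lineage and vector differences. List members past the test without Nalm6, and DCTPP1, LYAR, PIP4K2A and KIAA0494, were named after their values were seen, and 1 gene of the lists is not reported here. XIST, Y-linked genes and entries without a symbol were not named. For the gene that the study's text calls CIAO2, CIAO1 of its gene list was used. Of 13036 genes, 4687 had several probes, and in 2731 of them a probe that failed the filter enters the mean. Symbols are those of the array, with current ones from RefSeq. Alternatives were other filters, the restored signals, array weights, 1 fit of 12 arrays, no block, the methods' t-test and leaving out each line, which was added for the lineage difference after seeing the data.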

Additional observations from a re-analysis of the deposited data

Results flagged for a closer look

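A line was looked at again where its difference stood apart from those of the 3 other lines by Dixon's criterion at 95%. Of 117 genes and 30 lists looked at in this way, 7 genes and 2 lists stood apart, and chance alone gives about 1 in 20. In 6 of the 7 genes the line was Nalm6. BTG2, an antiproliferative gene, had 1.33 in Nalm6 and 0.01 to 0.04 in the other lines. JUND had 1.23, NICN1 1.03, PMAIP1, which encodes the apoptosis inducer NOXA, 0.97 and RNASEN, which encodes the microRNA processing enzyme Drosha, 0.48 in Nalm6, each the highest of the 4 lines. EP300, a coactivator of CREB, had −0.17 in Nalm6 and −0.08 in each of the 3 other lines. It was not detected in Jurkat or Molt4 with either vector, so the values of those lines are close to background. PSAT1 stood apart in RS4;11 instead, with −0.55 against −2.23 to −1.97. Among lists, the median of G2/M and mitosis genes was −0.80 in Nalm6, and that of apoptosis inducers was −0.025 in Nalm6 against 0.06 in each other line. DTX1 differed by 1.13 between T-ALL and BCP-ALL lines, with differences above 0 in both T-ALL lines and below 0 in both BCP-ALL lines, although it was not detected in RS4;11 with either vector and a decrease there could not be seen. Its lineage test gave an adjusted p of 0.63 by limma. Without the Nalm6 pair RS4;11 is the only BCP-ALL line, so that fit cannot test the difference for DTX1.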

How the results depend on the processing

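The count of 0 genes past the test over 4 lines was 928 (442 higher, 486 lower) with 12 arrays in 1 fit, 588 (237 and 351) with array weights and 0 to 265 when 1 line was left out, where Nalm6 gave 265 and RS4;11 gave 74. It was 0 under the other filters, the restored signals, trend and robust eBayes, and the methods' paired and unpaired t-test after Benjamini-Hochberg. Without the replicate block the count was 0. The 2752 genes at an unadjusted p under 0.05 became 4133 with no filter, 623 without the replicate block, 1807 (983 and 824) by the methods' paired t-test, 652 by the unpaired t-test and 1625 to 2807 when 1 line was left out (1824 without Jurkat). For the lineage difference 631 such genes became 312 when detection on all 12 arrays was required, 1681 with no filter and 148 to 3388 when 1 line was left out (223 without Jurkat, 148 without Molt4, 1106 without Nalm6, 3388 without RS4;11). The lineage count of 0 past the adjusted test was 0 to 1373 when 1 line was left out, with 17 without Nalm6 and 1373 without RS4;11, an alternative chosen after seeing the data.

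For shCREB2 minus shCREB3 the 0 genes became 465 (231 and 234) with detection on all 12 arrays, 398 (165 and 233) with restored signals and quantile normalization, 498 (126 and 372) with median scaling, 1827 (964 and 863) with 12 arrays in 1 fit, and 0 to 639 when 1 line was left out, with 639 without RS4;11. Of its 3255 genes at an unadjusted p under 0.05, 1773 were higher and 1482 lower, against 1096 and 2197 with median scaling. That count was 808 without the replicate block and 2012 to 3368 when 1 line was left out (2056 without Jurkat). The 19 genes that differed by at least 0.5 in all lines (1 higher, 18 lower) became 112 with normexp background correction (37 higher, 75 lower). Their count was 118 at a limit of 0.3 and 19 to 161 when 1 line was left out, with 161 without RS4;11. The 2-fold genes became 217 in Jurkat (from 45), 413 in Molt4 (from 74), 1126 in Nalm6 (from 299) and 13 in RS4;11 (from 0) with normexp, and 1 in RS4;11 with restored signals and quantile or median scaling.

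The list medians kept within the spread between lines in 295 of 299 checks. The exceptions were apoptosis inducers (0.0889 with normexp), histones (0.169 with normexp), small noncoding RNAs (0.352 with detection on all 12 arrays) and interferon-stimulated genes (−0.0265 to 0.0258 when 1 line was left out). Of 1053 checks of 117 genes, 944 kept direction and side of the threshold, 108 passed the threshold only under the alternative, and 1 turned, CREB1 without Molt4 (−0.0076). The cause of these shifts was not tested. The 4 lines, with 1 array each, and levels close to background limit what can be seen. All 265 genes that passed without Nalm6 had an adjusted p of 0.0430 to 0.0496.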
